A study of Mus musculus with 34 samples.

Results

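Gene expression without hormone was compared between 2 lines of mouse C127 cells, a mammary tumour line that the labels give as adenocarcinoma cells. Both lines had lost their own glucocorticoid receptor (GR) by knockout and carried an introduced mouse GR with a GFP tag, either wild-type (WT) or carrying the double substitution W718S/Y722S in the ligand-binding domain. All libraries treated with vehicle were taken from the tables of these lines, 3 of WT and 5 of W718S/Y722S, which is 8 of the 34 libraries of the series. The other libraries were 3 vehicle libraries each of lines with P631A, W718E or P643A receptor and, for every line, libraries after 2 h in 100 nM dexamethasone (Dex). Before treatment all cells had spent 24 h in medium with 10% charcoal-stripped serum. Each receptor is represented by 1 line, no clone is named and no library of the knockout without receptor was analysed here, so a difference between lines and an effect of the substitution cannot be told apart. Whether the replicates of a line are separate cultures is not said either, and the spread behind each p-value is that between its libraries, which may be technical.

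GR is a transcription factor that rests in the cytoplasm with heat shock proteins and moves into the nucleus when it binds a glucocorticoid, where it raises or lowers transcription of its targets. Charcoal treatment strips steroids from serum, so cells in vehicle show the state from which a hormone response starts. The lines differ at residues of the ligand-binding domain, and the series concerns how receptor molecules assemble into multimers.

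Levels are reads in exons, divided by a size factor that puts the libraries on one scale; the WT and W718S/Y722S tables had been normalised apart, so the read counts were recovered from both and rescaled together over the 23472 genes counted on the same transcript in both. Exon reads per library were 22.5 to 29.7 M in WT and 19.8 to 23.7 M in W718S/Y722S. The ribosomal precursor Rn45s took 10.5 to 11.3% of them in WT and 16.6 to 18.3% in W718S/Y722S. That difference of 6.10 percentage points had an exact two-sided permutation p of 0.0179, the smallest the 56 possible splits allow, and its part in the other differences was not tested.  Differences are on the scale of log2(normalised count + 1) with their standard errors (SE) and come from limma, and a positive value means higher in W718S/Y722S. A gene was called at an adjusted p under 0.05, and "by 2-fold" adds a log2 difference of at least 1 in size.

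Transcripts of the receptor itself were close in level. Nr3c1, which encodes GR, stood at 6591, 6595 and 6695 normalised counts in the WT libraries and 5942, 5940.2, 5916, 5934 and 5967 in the W718S/Y722S libraries. The groups did not overlap, and the difference was -0.16 ± 0.03 (adjusted p = 3.9e-06), or 1.12-fold lower in W718S/Y722S. These reads come from the introduced receptor and any remaining endogenous transcript, which exon counts do not separate. Of the steroid receptor and coregulator genes, 5 of 18 tested were higher and 10 lower, 2 of them by 2-fold, beside 38.4% higher and 38.2% lower over all genes tested. One of these was Esr1, the oestrogen receptor, at 137 to 149.6 in WT and 50.1 to 69.7 in W718S/Y722S (-1.23 ± 0.12).

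Markers of simple epithelium were low in both lines and those of mesenchyme high. The epithelial adhesion gene Epcam was at or near 0 in all 8 libraries, the simple keratin gene Krt8 at 22.2 to 42.2 in WT and 22.2 to 35.9 in W718S/Y722S, and the epithelial cadherin gene Cdh1 at 12.1 to 35.4 and 12.8 to 20.6. The mesenchymal filament gene Vim was at 65848 to 66345 and 70419.9 to 75442, the N-cadherin gene Cdh2 at 4599.9 to 4966 and 3118 to 3408. The milk protein genes Wap and Csn2 were at 0 in every library, whereas the milk gene Csn3 was at 437 to 465 in WT and 94.7 to 137 in W718S/Y722S. Of the markers of other cell types, Ptprc (leukocytes), Pecam1 (endothelium) and Adipoq (adipocytes) reached at most 7.45 normalised counts in any library. Other genes of those types were read in both lines. Those lower in W718S/Y722S included Cdh5, the endothelial cadherin, at 201 to 225 and 53.2 to 81.8, Cd68 at 212 to 236 and 139.5 to 179, and the lysozyme gene Lyz2 at 153 to 202 and 28.1 to 46.9. The adipocyte gene Fabp4 was higher, at 2.47 to 8.44 and 36.7 to 42.4 (2.78 ± 0.27). Of the list of other cell types, 6 of 19 were tested, with 1 higher and 4 lower. Of the others, 10 were too low and 3 were counted on different transcripts in the 2 lines. Csn2, Ptprc and Pecam1 above were also counted on different transcripts, so their levels are only roughly comparable. In cultures measured in bulk, fewer cells of a kind and less RNA per cell cannot be told apart.

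The lines differed across most of the transcriptome. Of 12195 genes with a mean of at least 10 normalised counts, 4685 (38.4%) were called higher in W718S/Y722S and 4653 (38.2%) lower. With a 2-fold difference as well, 707 (5.80%) were higher and 677 (5.55%) lower, and at 4-fold 148 were higher and 73 lower. The normalised counts of the 3 WT and 5 W718S/Y722S libraries did not overlap for 8796 genes (72.1%), and for 1378 of the 1384 with a 2-fold difference. The median difference over all genes was -0.001 by construction of the size factors, and the median size of a difference was 0.35. The split depends on the scale. With housekeeping genes as the scale the whole distribution moved by -0.17 and 3282 genes were higher and 6250 lower; with total reads without Rn45s it moved by 0.07, with 5398 higher and 3991 lower. Every difference below is therefore relative to the median gene. Counts called in each gene list below are to be read beside the shares over all genes, 38.4% higher and 38.2% lower, and 5.80% and 5.55% by 2-fold.

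**Figure D1:**
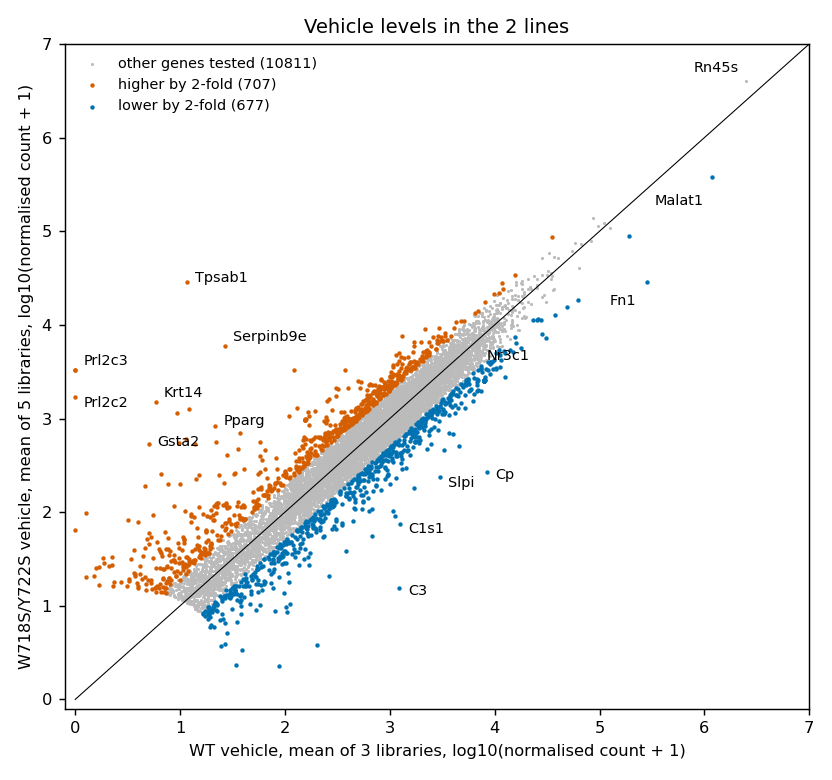
Mean normalised count in the 3 WT vehicle libraries (horizontal axis, log scale) and in the 5 W718S/Y722S vehicle libraries (vertical axis, log scale) for each gene tested. Genes higher or lower by 2-fold (707 and 677) are coloured, and some genes are named, among them Tpsab1 and Prl2c3 above the diagonal and C3, Cp and Fn1 below it.

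The largest differences were genes nearly silent in WT and abundant in W718S/Y722S. Tpsab1, a tryptase of mast cell granules (mm10 chr17:25343245-25345562), was at 10.7, 9.88 and 11.1 normalised counts in the WT libraries. In the W718S/Y722S libraries it was at 27359.5, 29045, 30544, 31369 and 26284, a difference of 11.28 ± 0.05 (adjusted p = 2.9e-38). The prolactin-family genes Prl2c3, Prl2c4 and Prl2c2, known as proliferins, had 0 reads in all 3 WT libraries. Prl2c3 was at 2740.0, 3736, 3576, 3654 and 2821 in the W718S/Y722S libraries, which is at least 1271-fold higher when the WT mean is set to 3 reads per library. Prl2c2 was at 1504, 1808, 1839.9, 1878 and 1417, at least 649.5-fold higher on the same floor. Prl2c3 and Prl2c4 are annotated over the same stretch of chromosome 13 (chr13:12790821-12800079 for Prl2c3), and the 3 genes are near-identical copies, so how reads divide between them is uncertain. The tryptase and prolactin-family list holds 21 genes, of which 9 were too low to test and 8 were counted on another transcript. The 4 tested members were the genes above. The 3 proliferins passed the filter on low counts only through the W718S/Y722S libraries, so the filter fixed their direction and the list is no separate evidence.

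Krt14, a keratin of basal epithelial cells, was at 5.37, 4.12 and 5.05 in WT and at 1451, 1621, 1525, 1543 and 1379 in W718S/Y722S (8.01 ± 0.09). At most 3 reads in every library of 1 line and a mean of at least 50 normalised counts in the other were found for 5 genes in W718S/Y722S, the 3 proliferins among them, and for 1 gene in WT. Krt16, a keratin of activated epidermis, had 1 read in the WT libraries together and was at 104, 99.4, 99.7, 99.0 and 78.5 in W718S/Y722S. Tmprss11f, a membrane serine protease gene, had 0 WT reads and was at 43.6 to 80.7, at least 24.3-fold higher on the floor of 3 reads per library. The gene read in WT was Ptgds, the lipocalin-type prostaglandin D synthase, with 82.9, 100.5 and 79.8 in WT and 6 reads in all in the W718S/Y722S libraries. Pparg, the fat-cell nuclear receptor, was at 26.1, 14.0 and 22.2 in WT and 791, 851, 825, 831 and 807 in W718S/Y722S (5.28 ± 0.12). Gsta2, a glutathione transferase gene, was at 2.47 to 5.05 and 489 to 595; its neighbour Gm3776 at 3.29 to 12.1 and 499 to 602 is a close copy, and reads could be split between them.

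A block of serine protease inhibitor genes on chromosome 13 was higher throughout. All 10 tested Serpinb genes there (mm10 chr13:32842092-34002794) were higher in W718S/Y722S, 9 by 2-fold, with a median difference of 5.05. Serpinb9d and Serpinb1b were below 10 normalised counts in every WT library, so the filter on low counts fixed their direction. Serpinb9f was near that limit in WT, at 5.15 to 11.2 on the scale of the 17 vehicle libraries. Serpinb9e was at 23.8, 30.5 and 23.2 in WT and 5225, 6163, 6405, 6248 and 5967 in W718S/Y722S (7.81 ± 0.07). Serpinb9f (6.98 ± 0.14), Serpinb9g (6.72 ± 0.10), Serpinb9d (5.44 ± 0.20) and Serpinb9b (4.67 ± 0.12), paralogs of the granzyme B inhibitor gene Serpinb9, were likewise near silent in WT; they are similar in sequence, so their counts may share reads. Serpinb9 itself was at 752 to 828 in WT and 2066 to 2308 in W718S/Y722S. Serpinb1a, which encodes an inhibitor of neutrophil elastase, was at 9.88 to 11.1 and 548 to 652, and Serpinb6a differed least (0.76 ± 0.03). The other 33 tested genes of that 10 Mb window had a median difference of 0.12. The 1 tested Serpinb gene on another chromosome was not called.

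Of the 12 genes with the largest negative differences among those with a mean of at least 200 normalised counts, 8 encode secreted proteins of the plasma or the matrix. C3, the central complement component, was at 1283, 1173 and 1251 in WT and 19.6, 14.0, 13.8, 11.7 and 13.7 in W718S/Y722S (-6.33 ± 0.14, adjusted p = 3.4e-23). Cp, the copper carrier ceruloplasmin, was at 8187, 8877 and 8438 and 299, 254, 214, 249 and 336 (-4.99 ± 0.08). C1s1, a protease that starts the classical complement cascade, was at 1239 to 1290.4 and 51.4 to 98.1, and Slpi, a secreted inhibitor of leukocyte proteases, at 2922 to 3093 and 189 to 275. Selenop, the plasma selenium carrier, was at 1044 to 1166 and 69.9 to 111. In each of these the lines did not overlap.

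Fn1, which encodes the matrix protein fibronectin, was at 287259, 260209 and 298478 normalised counts in WT and 28739, 29513, 29573, 24690.3 and 31326 in W718S/Y722S, 9.82-fold lower (-3.30 ± 0.06). The small leucine-rich proteoglycan genes Ogn (1580.1 to 1793 in WT and 159 to 194 in W718S/Y722S) and Prelp (4388 to 4713 and 472 to 558) and the collagen uptake receptor gene Mrc2 (645 to 689.9 and 101 to 118) were lower as well. The remaining genes of these 12 were Nckap5l (-3.62 ± 0.12), Pik3ip1, which encodes a PI3 kinase inhibitor (-3.38 ± 0.09), and Synpo, an actin-associated protein gene (-2.86 ± 0.05).

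**Figure D2:**
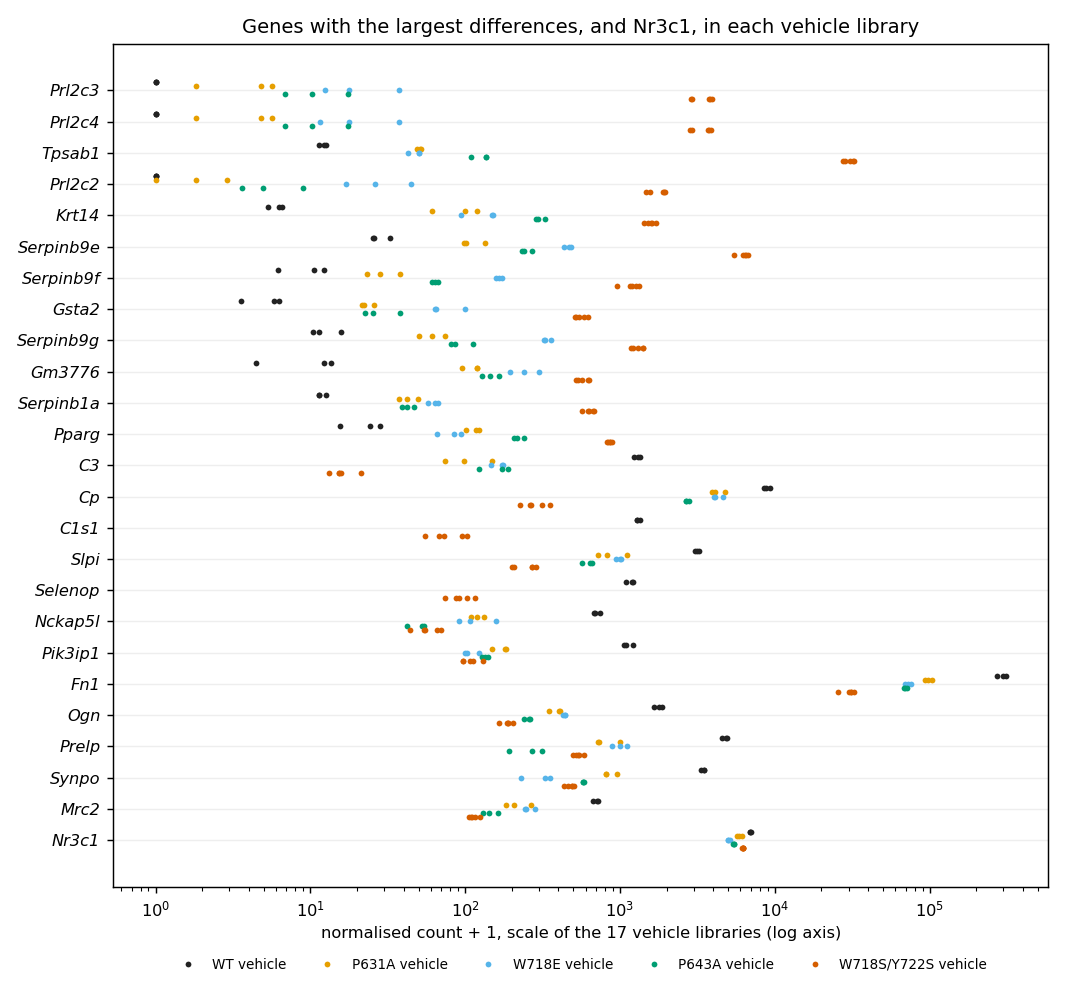
Normalised count (log scale, after adding 1) in each of the 17 vehicle libraries, coloured by line, for Nr3c1 and, of the genes that average 200 or more, the 12 with the largest positive and the 12 with the largest negative differences between W718S/Y722S and WT. Each point is a library, and WT and W718S/Y722S overlap in none of these genes; C1s1 and Selenop are drawn for those 2 lines only.

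Hormone targets of GR did not differ in 1 direction at baseline. Of 28 tested genes listed as induced by glucocorticoids, 12 were higher in W718S/Y722S, 8 lower and 8 not called, with a median difference of -0.01 against -0.001 over all genes; the sign of this median depends on the scale, at 0.06 on total reads and -0.17 on housekeeping genes, where 11 were higher and 13 lower. By 2-fold, 7 were higher and 2 lower. Over all genes tested the shares were 38.4% higher and 38.2% lower, and by 2-fold 5.80% and 5.55%. Against the mean of the 3 other mutant lines, 4 of the 28 were higher by 2-fold and 1 lower. This list and that of repressed genes were drawn up with the response of these lines to Dex known and so are not independent evidence of a direction.

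Sgk1, a kinase that regulates ion transport, was at 839, 826 and 819 in WT and 2449.9, 2555, 2635, 2645 and 2544 in W718S/Y722S, so it was 3.10-fold higher before any hormone was added (1.63 ± 0.03, adjusted p = 1.4e-23). Angptl4, a secreted inhibitor of lipoprotein lipase, was at 252, 249 and 246 and 1573, 1476, 1467, 1569 and 1547 (2.61 ± 0.04). Fkbp5, a co-chaperone that lowers the affinity of GR for hormone, was at 1109.7 to 1192 and 1752 to 1887 (0.64 ± 0.04). Tsku, a secreted leucine-rich protein gene (1.86 ± 0.04), the stress gene Ddit4 (1.09 ± 0.05), the repressor gene Nfil3 (1.05 ± 0.05) and Id1, an inhibitor of helix-loop-helix factors (2.85 ± 0.06), were higher too. Dusp1, a phosphatase that inactivates MAP kinases, was at 186 to 216 and 262 to 317 (0.54 ± 0.08), and Errfi1, an inhibitor of the EGF receptor, at 258 to 307 and 423 to 501 (0.71 ± 0.07). Some of this was shared with the other mutant lines. On the scale of the 17 vehicle libraries, Sgk1 was at 854 to 874 in WT and 2553 to 2759 in W718S/Y722S. P631A had 1706 to 1886, W718E 1309 to 1369 and P643A 2464 to 2606. Fkbp5 was at 1157 to 1242 in WT, 1834 to 1967 in W718S/Y722S, and 1986 to 2034, 1719 to 2170 and 2161 to 2283 in those lines. Ddit4 and Nfil3 were also above WT in all of them.

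Other induced targets lay lower. Tsc22d3, the gene of the anti-inflammatory mediator GILZ, was at 627, 676 and 620.0 in WT and 389, 362, 434, 427 and 417 in W718S/Y722S (-0.66 ± 0.06). Tgm2, a transglutaminase that crosslinks proteins, was at 4379 to 4565 and 1600.2 to 1831 (-1.35 ± 0.04). The matricellular protein gene Ccn2 was at 81.3, 64.2 and 75.7 and 42.4, 32.7, 33.2, 35.1 and 28.5, and the transcription factor gene Klf9 at 848 to 942 and 686 to 729. The clock gene Per1 was at 349, 309.7 and 304 and 364, 388, 368, 353 and 352, ranges that lie side by side, and its difference of 0.19 ± 0.06 had an adjusted p of 0.0097. The metallothionein gene Mt1 (0.03 ± 0.05, adjusted p = 0.55) and Cebpd, a leucine zipper factor gene (-0.08 ± 0.08, adjusted p = 0.37), were not called.

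Of 24 genes listed as repressed by Dex in WT cells, 11 were higher in W718S/Y722S and 10 lower, 6 and 3 of them by 2-fold. The shares over all genes tested were 38.4% and 38.2%, and 5.80% and 5.55% by 2-fold. Ccl2, a monocyte chemokine, was at 282 to 325 in WT and 54.9 to 74.5 in W718S/Y722S (-2.20 ± 0.11). Gdnf, a neurotrophic factor gene (-1.50 ± 0.06), and Cpeb4, which encodes a regulator of polyadenylation (-1.49 ± 0.04), were also lower. Fosl1, a subunit of AP-1, was at 366 to 439.7 and 1953 to 2219 (2.40 ± 0.05). Rnd1, a small GTPase gene (2.04 ± 0.06), the growth-promoting transcription factor gene Myc (1.69 ± 0.03) and Klf4, an epithelial and stem cell factor gene (1.48 ± 0.04), were higher.

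**Figure D3:**
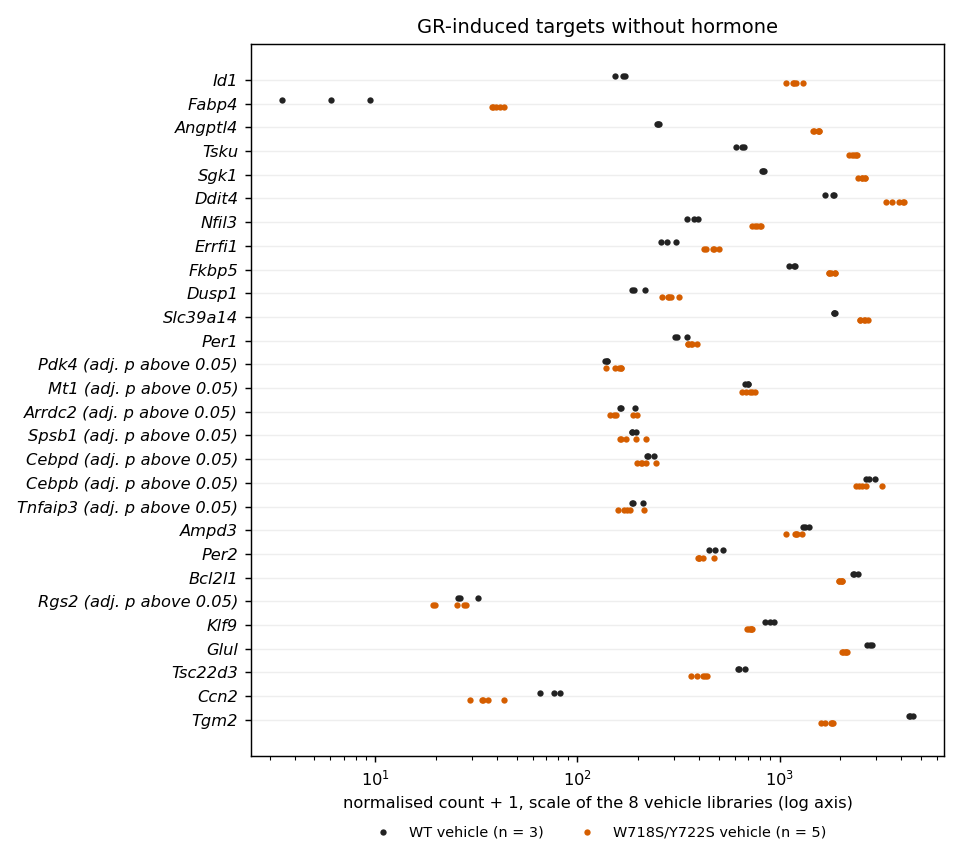
Normalised count (log scale, after adding 1) of the 28 tested glucocorticoid-induced genes in the 3 WT and 5 W718S/Y722S vehicle libraries, each point a library, ordered by their difference. Id1, Angptl4 and Sgk1 lie higher in W718S/Y722S than in WT, and Tsc22d3, Ccn2 and Tgm2 lower.

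Cell division genes were higher in W718S/Y722S. Of 23 tested genes of mitosis and G2/M, all 23 were higher, 21 by 2-fold, with a median difference of 1.17. With housekeeping genes as the scale 13 passed 2-fold. Cenpe, a kinetochore motor, was at 1698, 1632 and 1635 in WT and 5058, 5358, 5209, 4955 and 5004 in W718S/Y722S (1.63 ± 0.03). Plk1, a mitotic kinase, was at 855 to 896 and 2421 to 2561 (1.49 ± 0.03), and Cdc20, which activates the anaphase-promoting complex, at 605 to 662 and 1747 to 1848 (1.47 ± 0.04). The proliferation marker Mki67 was at 9361 to 10505 and 20216 to 23262 (1.12 ± 0.04), and the mitotic kinase gene Cdk1 at 1052 to 1105 and 2308 to 2505 (1.17 ± 0.03).

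Of 24 genes of DNA replication and G1/S, 21 were higher, 3 by 2-fold, and 2 lower, with a median of 0.65. Rrm2, a subunit of ribonucleotide reductase, was at 2090.4, 2191 and 2201 and 8559, 9056, 9208, 9507 and 8476 (2.05 ± 0.03), and E2f2, a factor that activates replication genes, at 126 to 143 and 428 to 493 (1.76 ± 0.07). The lower genes were Cdkn1b, the cyclin-dependent kinase inhibitor p27, at 4674, 4715 and 4623 and 2009.9, 1941, 1859, 1940.4 and 1861 (-1.28 ± 0.03), and the cyclin gene Ccnd2 (-0.43 ± 0.03). Histone genes of the main cluster on chromosome 13, which are transcribed in S phase, were higher too. All 51 tested Hist1h genes between 20 and 30 Mb (mm10 chr13:21715711-23764412) were higher, 33 by 2-fold, with a median of 1.09 and a range of 0.16 to 1.60. The linker histone gene Hist1h1e was at 2866 to 3182 in WT and 7256 to 7915 in W718S/Y722S, and Hist1h1a was at 978 to 1118 and 2962 to 3367. The smallest of the differences, that of Hist1h2bc, was not called with housekeeping genes as the scale (-0.01). Histone genes are repeated copies, so reads may be shared among them. Of 13 tested histone genes on other chromosomes, 12 were higher, 7 by 2-fold, while the other 23 genes of the chromosome 13 window had a median of 0.0011.

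Promoters of these lists were searched for the motif best known for the list, in the 250 bases before the start of each gene, from the RefSeq sequences of GRCm38.p6. The cell cycle homology region core, TTTGAA on either strand, was in 7 of 19 mitosis genes with a promoter (36.8%) and in 18.3% of the promoters of all 27025 genes. The stretches below are those around the match in 2 mitosis genes, Cdc20 (chr4:118437344-118437433, minus strand) and Cdk1 (chr10:69352936-69353025, minus strand), read 5′ to 3′ along the gene with the match in capitals. The promoter of Cdk1 holds 2 matches, of which 1 is in the stretch shown.
Cdc20: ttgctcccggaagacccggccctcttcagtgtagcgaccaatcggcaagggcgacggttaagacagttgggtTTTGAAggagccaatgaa
Cdk1: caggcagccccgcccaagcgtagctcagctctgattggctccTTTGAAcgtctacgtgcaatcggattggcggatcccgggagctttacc
A match describes the letters and is not evidence of binding.

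Interferon-stimulated genes, which defend cells against viruses, were mostly lower. Of 16 tested, 14 were lower in W718S/Y722S, 10 by 2-fold, and 1 was higher, with a median difference of -1.04. Ifit3, which encodes an antiviral protein, was at 200.3, 205 and 199.9 in WT and 2.17, 4.68, 1.15, 4.26 and 1.96 in W718S/Y722S (-5.82 ± 0.29, adjusted p = 1.8e-15). Its relatives Ifit2 (551 to 569 and 123 to 135) and Ifit1 (13.1 to 29.2 and 2.17 to 9.17), the guanylate-binding protein gene Gbp2 (105 to 155 and 19.2 to 31.6) and the ubiquitin-like modifier gene Isg15 (50.6 to 54.5 and 12.6 to 22.4) followed. The exception was Dhx58, a regulator of RNA sensing, at 14.1 to 21.5 and 43.2 to 59.6 (1.44 ± 0.19).

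The interferon-stimulated response element core, GAAA and GAAA with 2 free bases between them, searched on both strands, was in 6 of 13 of these genes with a promoter (46.2%) and in 3.46% of all promoters. It is shown in capitals on the reverse strand for Ifit3 (chr19:34583333-34583422, plus strand), which has 2 matches, and Gbp2 (chr3:142620564-142620653, plus strand).
Ifit3: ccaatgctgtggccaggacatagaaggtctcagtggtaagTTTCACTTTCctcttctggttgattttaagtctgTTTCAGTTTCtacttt
Gbp2: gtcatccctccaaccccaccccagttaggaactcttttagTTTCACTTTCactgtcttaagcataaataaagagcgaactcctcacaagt
The other promoters with the core were those of Ifit1, Isg15, Stat2 and Bst2.

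Class I antigen presentation genes, many of which interferons also induce, were lower: 12 of 14 tested were lower, 5 by 2-fold, and none was called higher. Tapbp, the peptide loading chaperone tapasin, was at 6829, 6885 and 6723 in WT and 2098, 1913, 1865, 1946 and 2014 in W718S/Y722S (-1.79 ± 0.03). B2m, the light chain of class I molecules, was at 10070.1, 10280.4 and 10259 and 3391, 3245, 3353, 3407 and 3424 (-1.60 ± 0.03). The heavy chain gene H2-D1 was at 8284 to 8829 and 3947 to 4088, and H2-T23 at 126 to 151 and 53.2 to 71.7. Class I heavy chain genes are similar, so their reads may be shared.

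Genes of the antioxidant response, driven by the factor NRF2, and of glutathione use were higher in 18 of 22 tested members, 10 by 2-fold, with a median of 0.97; 3 were lower, 2 by 2-fold. With housekeeping genes as the scale 15 were higher, 6 by 2-fold, and 5 lower. Nqo1, a quinone reductase, was at 322, 280.0 and 315 in WT and 1886, 2126, 2232, 2280.1 and 2028 in W718S/Y722S (2.78 ± 0.05). Aldh3a1, an aldehyde dehydrogenase, was at 244 to 343 and 1665 to 1824 (2.54 ± 0.07), and the transferase gene Gsta4 at 1320.0, 1289.8 and 1316 and 7399.7, 7509, 7423, 7901 and 7430.4 (2.52 ± 0.03). Gclm, a subunit of the enzyme that makes the glutathione precursor (1.45 ± 0.04), the sulfiredoxin gene Srxn1 (1.25 ± 0.03) and the thioredoxin reductase gene Txnrd1 (0.98 ± 0.03) were higher. The lower members were the transferase genes Gstm1 (-1.29 ± 0.04), Gstm2 (-1.49 ± 0.04) and Gstt3 (-0.97 ± 0.14). The glucuronosyltransferase locus Ugt1a on chromosome 1, whose 8 genes share exons and are counted almost as 1, differed by 2.64. The antioxidant response element core TGACNNNGC, on either strand, was in 3 of 16 promoters of the list (18.8%) and in 11.5% of all. For Gclm (chr3:122245382-122245471, plus strand) the stretch with the match, on the reverse strand, is:
Gclm: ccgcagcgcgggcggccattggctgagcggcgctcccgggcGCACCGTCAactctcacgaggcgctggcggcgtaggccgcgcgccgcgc

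Genes of ATF4, the factor that cells switch on when amino acids or protein folding fail, and of the unfolded protein response were higher in 20 of 23 tested members, 8 by 2-fold, with 2 lower and a median of 0.70. Trib3, a pseudokinase that restrains the pathway, was at 1114, 1168 and 1159 in WT and 5208, 4656, 4395, 4527 and 4852 in W718S/Y722S (2.04 ± 0.04). Slc7a11, the cystine importer, was at 223 to 256 and 844 to 1012 (1.99 ± 0.06), the mitochondrial folate enzyme gene Aldh1l2 at 1666 to 1717 and 6407 to 6843 (1.95 ± 0.03), and Chac1, which degrades glutathione, at 602 to 688 and 2128 to 2465 (1.84 ± 0.04). Atf4 itself differed by 0.93 ± 0.04. Sdf2l1, an endoplasmic reticulum chaperone gene of the other arm of the response, was lower (-0.63 ± 0.04). Heat shock and receptor chaperone genes were higher in 13 of 18 tested members and lower in 2, with Hspa1a the 1 past 2-fold (10.7 to 15.1 and 22.2 to 35.3). Only some members of this list encode chaperones that hold GR ready for hormone. Hsph1 was at 1739 to 1849 and 3436 to 3626, and Hspb1 at 311 to 332 and 148 to 187.

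Cholesterol synthesis and uptake genes were lower in 19 of 22 tested members, 4 by 2-fold, and higher in 3, of which 1 turned lower with housekeeping genes as the scale; the median was -0.50. Insig1, a sensor that holds the pathway in check and is its target, was at 12439, 12757 and 12684 in WT and 5243, 4675, 4693, 4963 and 5432 in W718S/Y722S (-1.34 ± 0.04). The synthesis genes Hmgcs1 (-1.09 ± 0.03), Msmo1 (-1.08 ± 0.04) and Hsd17b7 (-1.07 ± 0.04) were lower, and Pmvk, a kinase gene of the mevalonate steps, was higher (0.33 ± 0.05). The sterol regulatory element letters TCACNCCAC, on either strand, were in 1 of 14 promoters of the list (7.14%) and 1.22% of all. That promoter, Hmgcs1 (chr13:119690173-119690262, plus strand), reads:
Hmgcs1: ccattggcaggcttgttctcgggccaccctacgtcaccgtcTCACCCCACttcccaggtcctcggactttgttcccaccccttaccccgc

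Matrix genes other than Fn1 were mostly lower. Of 20 collagen genes tested, 12 were lower, 8 by 2-fold, and 7 higher, 1 by 2-fold, with a median of -0.42. Col5a2, a fibril collagen chain, was at 27909, 28858 and 28074 in WT and 8253, 7789, 7677, 7688 and 8199 in W718S/Y722S (-1.84 ± 0.03). The neighbouring basement membrane genes Col4a5 (10038 to 10593 and 3349 to 3694) and Col4a6 (7328 to 7553 and 1878 to 2108) on chromosome X were lower, as was Col8a1 (-1.82 ± 0.04), whereas Col4a1 was higher (0.27 ± 0.03) and Col12a1 was at 72.7 to 89.8 and 349.8 to 396 (2.19 ± 0.08). Of 14 laminin and integrin genes, 3 were higher and 8 lower, with Itgb5 alone past 2-fold (-1.59 ± 0.04).

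Matrix proteases and their inhibitors split, with 6 of 16 tested genes higher and 10 lower, 5 each way by 2-fold (3 higher with housekeeping genes as the scale). Adam8, a membrane protease gene, was at 51.5 to 65.2 and 515 to 598 (3.29 ± 0.08), and Plaur, the urokinase receptor, at 471 to 508 and 1021 to 1127. Lower were the inhibitor gene Timp2 (36651 to 38228 and 12485 to 13305), the membrane protease gene Mmp14 (7949.7 to 8529 and 3200.4 to 3486), Adamts4 (-1.86 ± 0.09) and, at low counts, Mmp2 (24.2 to 27.6 and 2.34 to 9.81). Among mesenchymal genes, 5 of 18 were higher and 8 lower, beside 38.4% and 38.2% over all genes tested. The repressors Snai1 (1.11 ± 0.08) and Snai2 (1.47 ± 0.09) were higher, and Zeb1 (-0.78 ± 0.03) and the receptor gene Pdgfrb (-0.79 ± 0.03) lower. The direction of Vim (0.13 ± 0.04) turned with housekeeping genes as the scale (-0.04). Of 13 epithelial junction and keratin genes, 4 were higher and 2 lower, or 4 each way with housekeeping genes as the scale; Grhl2, a regulator of epithelial genes, reached 28.8 to 44.7 from 4.12 to 6.14, and the plakophilin gene Pkp1 988 to 1021 from 464 to 513.

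**Figure D4:**
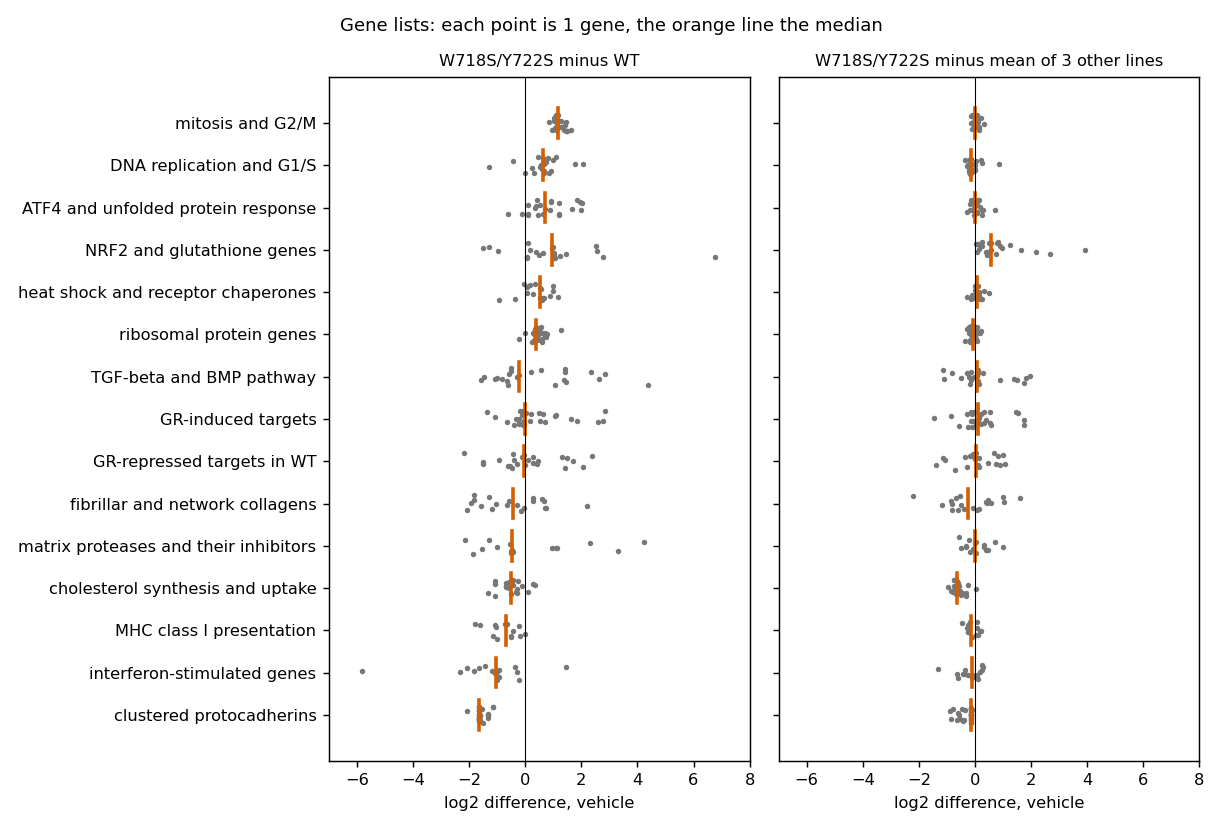
Log2 difference of each tested member (points) of gene lists, with the list median as a bar, for W718S/Y722S minus WT (left) and W718S/Y722S minus the mean of the 3 other mutant lines (right), in vehicle. Mitosis genes lie above 0 (median 1.17) and interferon-stimulated genes below (median -1.04) in the left panel, and in the right panel 0 mitosis genes and 1 interferon-stimulated gene pass 2-fold.

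In the TGF-beta and BMP pathway, 11 of 23 genes were higher and 11 lower, 9 and 4 by 2-fold. The shares over all genes tested were 38.4% and 38.2%, and 5.80% and 5.55% by 2-fold. The higher ones included the direct BMP targets Id1 (167, 153 and 171 in WT and 1181, 1162, 1207, 1297 and 1071 in W718S/Y722S), Id2 (248 to 284 and 1507 to 1710.0) and Id3 (477 to 531 and 2456 to 2606), and the inhibitory Smad genes Smad6 (1.38 ± 0.06) and Smad7 (1.43 ± 0.04). Gdf15, a stress-induced ligand, was at 1.65 to 5.37 and 58.9 to 90.2 (4.39 ± 0.25). The activin subunit gene Inhbb (-1.57 ± 0.08), the co-receptor gene Tgfbr3 (-1.47 ± 0.05) and the ligand gene Tgfb3 (-1.08 ± 0.04) were lower.

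Among inflammatory genes, 5 of 19 were higher and 9 lower, beside 38.4% and 38.2% over all genes tested. Besides C3 and Ccl2, the membrane chemokine gene Cx3cl1 (709 to 744 in WT and 158 to 227 in W718S/Y722S), the NF-kB subunit gene Relb (448 to 473 and 115 to 147) and the NF-kB inhibitor gene Nfkbia (755 to 808 and 312 to 407) were lower. The prostaglandin synthases Ptgs2 (559, 494 and 545 and 2226, 2508, 2562, 2552 and 2424) and Ptgs1 (689 to 747 and 2213 to 2324) and the alarmin gene Il33 (2.56 ± 0.09) were higher. Of 24 growth factor and receptor genes, 12 were higher and 5 lower, against 9 and 10 with housekeeping genes as the scale. The EGF receptor ligands Areg (20.2 to 27.6 and 183 to 219.8), Ereg (109 to 135 and 399 to 455) and Btc (1.19 ± 0.10) were higher, as was Igfbp6, which binds IGF2 (1.45 ± 0.03).

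All 32 tested clustered protocadherins, adhesion proteins whose variable exons lie side by side on chromosome 18, were lower by 2-fold, with a median of -1.64. The gamma genes share constant exons and were counted almost as 1: their 21 differences ran only from -1.65 to -1.63. The 11 tested beta genes are single-exon genes of similar sequence and differed by -2.06 to -1.14; Pcdhb22 was at 231, 228 and 242 in WT and 52.1, 53.8, 64.2, 54.3 and 52.0 in W718S/Y722S.

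The abundant nuclear noncoding RNAs Malat1 and Neat1 were lower, and 7 of 10 listed noncoding and RNA quality transcripts were higher. Malat1 was at 1208150, 1162970 and 1165760 normalised counts in WT and 364147, 405920, 405075, 356180 and 364846 in W718S/Y722S (-1.64 ± 0.08), and Neat1, the scaffold of paraspeckles, at 171340 to 227416 and 76835 to 104754 (-1.10 ± 0.09). The snoRNA host genes Gas5 (1443 to 1508 and 3512 to 3655) and Snhg1 (483 to 543 and 1124 to 1191) were higher. Of 29 ribosomal protein genes, 27 were higher, 1 by 2-fold, with a median of 0.39; Rps2, the member past 2-fold, was at 1162 to 1246 and 2678 to 3062, and Rpl37a was the 1 called lower (-0.22 ± 0.04). Of 8 mammary luminal genes 3 were higher and 4 lower, near the shares over all genes, and the casein gene Csn3 was at 437 to 465 and 94.7 to 137 (-2.02 ± 0.10). The share of Rn45s given above moved in the same libraries, and its part in these differences was not tested.

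Along the genome, differences were summarised in 10 Mb windows with at least 20 genes tested. The highest was chr13 from 20 to 30 Mb (74 genes, median 0.91), which holds the histone cluster, followed by chr5 from 90 to 100 Mb (34 genes, median 0.31) and chr13 from 30 to 40 Mb (43 genes, median 0.30), which holds the Serpinb block. In the chr5 window the most abundant called genes were Sept11 (0.64 ± 0.03), a septin, Ccni (-0.54 ± 0.04) and the vesicle tethering gene Uso1 (0.28 ± 0.03). The lowest were chrX from 140 to 150 Mb (median -0.32), with Col4a5 and Col4a6, chr17 from 0 to 10 Mb (median -0.29), with Tulp4 (-0.55 ± 0.03) and the chromatin gene Arid1b (-0.30 ± 0.03), and chr1 from 60 to 70 Mb (median -0.28), where Nrp2, a receptor for semaphorins and VEGF, was at 27441 to 27868 in WT and 11226 to 11420.1 in W718S/Y722S (-1.28 ± 0.03). Other abundant called genes of these windows were Ssr1 (0.32 ± 0.03), Acsl4 (0.24 ± 0.03), Scaf8 (-0.10 ± 0.03), Eef1b2 (0.26 ± 0.03) and Raph1 (-0.11 ± 0.03), all of small size. By chromosome the medians ran from -0.09 (chr1) to 0.12 (chr13), and chr18 had 44 genes lower by 2-fold, 32 of them protocadherins.

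**Figure D5:**
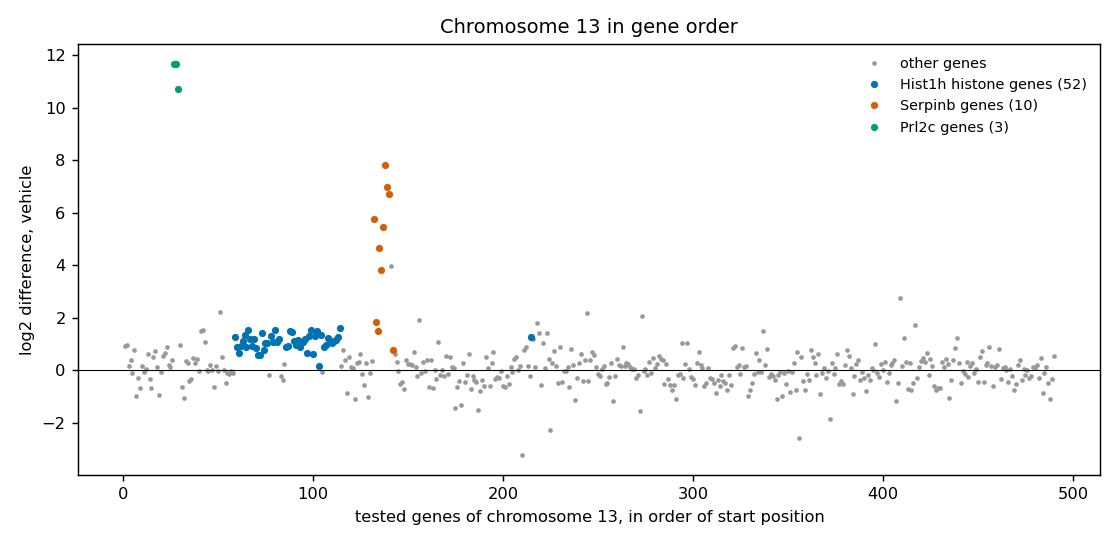
Log2 difference, W718S/Y722S minus WT in vehicle, of the 490 tested genes of chromosome 13, in order of start position. The 51 Hist1h genes between 20 and 30 Mb sit between 0.16 and 1.60, Hist1h2al stands apart from them in position at 1.26, the 10 Serpinb genes sit between 0.76 and 7.81, and the 3 Prl2c genes, with 0 reads in WT, lie above them.

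The line difference was also measured in the libraries treated with Dex, which the vehicle comparison did not use. One of them stood apart. W718S/Y722S Dex library 1 differed by 2-fold from the mean of the other 4 of its group in 17 of 817 genes that separate the lines by 2-fold in vehicle at a mean of at least 200, against 0 or 1 in every other library of either line. Tpsab1 was at 1621, 27222, 26615, 27872 and 27543 normalised counts in the 5 Dex libraries of W718S/Y722S, and Prl2c3 at 526, 3706, 3570.0, 4152 and 4141, so that library 1 lay between the lines for these genes. In the 5 vehicle libraries no such gene differed by 2-fold from the mean of the others.

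With Dex, 815 of 12146 genes (6.71%) were higher by 2-fold in W718S/Y722S than in WT and 739 (6.08%) lower, and without library 1 these were 778 and 745. Of the 1384 genes with a 2-fold difference in vehicle, 1353 could be tested with Dex and 1326 were called with the same sign, or 1332 without library 1. No share over all genes stands beside this count, and between these lines 38.4% were already higher and 38.2% lower in vehicle. Tpsab1 differed by 10.55 ± 0.74 with Dex and by 11.36 ± 0.14 without library 1, Krt14 by 7.47 ± 0.24 and 7.72 ± 0.10, and Fn1 by -3.30 ± 0.12 and -3.41 ± 0.06. Sgk1 differed by -0.74 ± 0.06 with Dex (-0.69 ± 0.03 without library 1), where it had differed by 1.63 ± 0.03 in vehicle. Fabp4, a fatty acid carrier gene, differed by -0.04 ± 0.18 (0.10 ± 0.13) against 2.78 ± 0.27. The change of the difference had an adjusted p of 2.8e-17 for Sgk1 and 6.4e-06 for Fabp4, and both were called without library 1 as well (1.7e-25 and 3.5e-07).

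The other 3 mutant lines place these differences. In a fit of all 17 vehicle libraries, W718S/Y722S differed from the mean of P631A, W718E and P643A by 2-fold in 161 of 11905 (1.35%), higher, and in 79 (0.664%), lower. This contrast shares the W718S/Y722S libraries with that against WT, so the values are given side by side. Levels given next are means ± SD on the scale of these 17 libraries, with n = 3 for the other lines and n = 5 for W718S/Y722S.

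Tpsab1 stood at 11.0 ± 0.656 in WT and 30182 ± 2235 in W718S/Y722S, and the P631A, W718E and P643A lines had 49.6 ± 1.62, 46.8 ± 4.19 and 126 ± 16.1, which puts W718S/Y722S above all 4 other lines (8.80 ± 0.06 against the 3 mutants, adjusted p = 6.5e-36). Prl2c3 was at 0 ± 0 in WT and 3449.7 ± 509 in W718S/Y722S, and the P631A, W718E and P643A lines had 3.10 ± 2.03, 21.6 ± 13.2 and 10.5 ± 5.49. Krt14 was at 5.05 ± 0.678 in WT and 1569.5 ± 99.0 in W718S/Y722S, and the P631A, W718E and P643A lines had 92.3 ± 29.6, 130.2 ± 32.4 and 301 ± 22 (3.37 ± 0.12 against the 3). Of the 10 Serpinb genes, 9 were higher by 2-fold than in the 3 mutants, with a median of 3.08. Of the NRF2 list 5 members were higher by 2-fold than in the 3, among them the transferase gene Gsta2 (3.93 ± 0.14), Aldh3a1 (2.69 ± 0.09) and Nqo1 (2.19 ± 0.07). Id1 (1.76 ± 0.06), Id2 (1.83 ± 0.06) and Id3 (1.96 ± 0.05) were higher and C3 (-3.12 ± 0.13) and Cp (-3.71 ± 0.06) lower than in the 3. Col4a1, close to its WT level, differed from the 3 by 1.04 ± 0.02.

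Other groups held few or no genes past 2-fold against the mean of the 3 other mutant lines. Mitosis genes numbered 0 of 22 past 2-fold in either direction, MHC class I genes 0 of 14, ATF4 and unfolded protein response genes 0 of 23 and protocadherins 0 of 32. Of 15 interferon-stimulated genes 1 was lower by 2-fold. Over all genes in this contrast 1.35% were higher and 0.664% lower by 2-fold, so counts of 0 do not set these lists apart. Median differences from the 3 were -0.14 for gamma and -0.59 for beta protocadherins, against -1.64 and -1.35 from WT. Plk1 was at 912 ± 20.8 in WT and 2570.4 ± 60.1 in W718S/Y722S, and the P631A, W718E and P643A lines had 2115 ± 81.7, 2180.2 ± 85.5 and 2438 ± 14.8. B2m was at 10637 ± 123 in WT and 3510.4 ± 67.2 in W718S/Y722S, and the P631A, W718E and P643A lines had 4747 ± 537, 3469 ± 42.2 and 4384 ± 17.6. For Fn1 the 3 other mutant lines lay between WT and W718S/Y722S and apart from both. It was at 293974 ± 20530.4 in WT and 30024 ± 2604 in W718S/Y722S. The P631A, W718E and P643A lines had 98229 ± 5209.8, 72577 ± 3066 and 69961 ± 1378, below WT and above W718S/Y722S in every library. Prelp differed from the mean of the 3 by -0.14 ± 0.08 (adjusted p = 0.15), against -3.16 ± 0.04 from WT, but this mean joins opposite differences. Prelp was at 717 to 1002 in P631A, 889 to 1115 in W718E and 190 to 313 in P643A, with W718S/Y722S between them at 494 to 582. The Hist1h genes of chromosome 13 had a median of -0.23 against the 3, with 0 of 50 past 2-fold. Malat1 was at 1229090 ± 26123 in WT and 395812 ± 26382 in W718S/Y722S, and the P631A, W718E and P643A lines had 365114 ± 48743, 359035 ± 54474 and 293773 ± 13718.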

How the data were processed

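What was measured is total RNA, sequenced from vehicle libraries of the WT (3) and W718S/Y722S (5) lines. Per the submitters' processing notes, the tools were cutadapt, STAR 2.7.0f and HOMER 4.10.4 with the mm10 build. Per the file headers, the authors counted reads in exons, kept 1 transcript per gene, and deposited 1 table per line with normalised log2 values; neither the transform nor a strand option is given in the sources used here, so reads of overlapping antisense genes are not separated. These log2 values of the authors turned out to be pulled toward each gene's mean, and read counts were recovered by inverting this in each table. In the WT and W718S/Y722S tables, all but a few recovered values were within 0.1 of a whole number for gene means under 100 (100.0 and 99.997%), and 95.5 and 96.5% for means of 3000 and over. One constant was itself chosen to make counts whole.

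The tables give the same transcript for 23472 of 25124 genes. The others were left out of the tests, a choice made after the files were seen. Counts were divided by median-of-ratio size factors of the 8 libraries (or of the 17 vehicle or 8 Dex libraries) and fitted as log2(value + 1) in limma 3.58.1 (R 4.3.3; lmFit, eBayes with a variance trend), with Benjamini-Hochberg adjustment over every gene with a mean of 10 or more. All per-sample columns were used or assigned, and 0 belonged to no sample. The steps were run on simulated data, which cannot show whether the deposited values arose in the way assumed. Tests across the separately normalised tables rest on the recovered counts. The replicate numbers did not pair the libraries.

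Named were the 12 genes with the largest differences each way among those called, with a mean of at least 200 and no overlap of the lines; up to 4 called genes each way in every list; Nr3c1; genes read in 1 line only; and the 3 most abundant called genes of the 3 highest and 3 lowest windows, with members compared with them. A few genes that this rule names are not reported here. The members, lists and tests were chosen with earlier results of these data known. Alternatives were other scales, pseudocounts, filters, weights, sets of libraries and a fold of 1.5.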

Additional observations from a re-analysis of the deposited data

Results flagged for a closer look

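For 10 of the 192 genes with values in the text, 1 of the 5 W718S/Y722S vehicle libraries lay far from the other 4, measured as the gap to the nearest other library over the whole range; chance alone gives about 1 gene in 20. These were Krt16 in library 5 (78.5 against 99.0 to 104, ratio 0.796); Ssr1 in library 1 (7442 against 6992 to 7086, ratio 0.791); Gsta4 in library 4 (7901 against 7400 to 7509, ratio 0.782); Col11a1 in library 1 (21.7 against 11.5 to 11.8, ratio 0.969); Il33 in library 4 (428 against 333 to 346, ratio 0.870). The others were Igfbp6 in library 4 (2924 against 2684 to 2752, ratio 0.717); Pcdhb22 in library 3 (64.2 against 52.0 to 54.3, ratio 0.811); Rn45s in library 1 (4342000 against 3830000 to 3952000, ratio 0.762); Cd68 in library 2 (179 against 139.5 to 149.9, ratio 0.735); Adm in library 1 (185 against 229 to 245, ratio 0.725). The libraries concerned were library 1 in 4 genes, library 4 in 3 and libraries 2, 3 and 5 in 1 each. In none of these genes do the lines change order when that library is left out.

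The line difference changed between vehicle and Dex, by a test of the change itself over 16 libraries, in 207 of 12130 genes and in 24 of the genes with values in the text. Given as the difference with Dex minus that in vehicle on the log2 scale, it was negative for Gm3776 (-1.20), Pik3ip1 (-0.59), Prelp (-0.37), Tsc22d3 (-0.81), Sgk1 (-2.37), Fkbp5 (-1.06), Id1 (-1.02), Fabp4 (-2.81), Errfi1 (-1.39), Nfil3 (-0.73), Glul (-0.74), Mt1 (-0.40), Cebpd (-0.65), Gsta4 (-0.17) and Gdf15 (-1.38). It was positive for Ccn2 (0.87), Klf9 (0.29), Gdnf (0.66), Fosl1 (0.48), Rnd1 (0.45), Pkp1 (0.24), Smad7 (0.49), Snhg1 (0.28) and Adm (0.48). All 24 were also called without W718S/Y722S Dex library 1, the library that stands apart; over all genes that fit called 345 of 12138, including all 207. The largest change, that of Fabp4, concerns a gene at 2.47 to 8.44 normalised counts in the WT vehicle libraries and 36.7 to 42.4 in those of W718S/Y722S.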

How the results depend on the processing

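No direction or call of the 25 genes named for their size or as the receptor changed under any alternative that gave a value. With housekeeping genes as the scale the highest and lowest window medians were 0.74 and -0.48. Without a filter on low counts, 1077 genes were higher by 2-fold than in WT, the lowest window was at -0.43, and 321 and 163 genes were higher and lower by 2-fold than in the 3 other mutant lines; with a mean of at least 50, the latter was 47. A fold of 1.5 gave 1832 higher and 1752 lower, 3392 shared with Dex, and 400 and 265 against the 3 lines. Leaving out 1 library at a time gave 4459 to 4650 genes higher, 4385 to 4657 lower, 696 to 726 higher and 660 to 687 lower by 2-fold, 1306 to 1344 shared with Dex, 160 to 167 and 77 to 82 against the 3 lines, 5 to 7 genes read in W718S/Y722S only and 1 in WT only, window medians of 0.91 to 0.93 and -0.39 to -0.28, and a gap in Rn45s of 5.80 to 6.28 points. The replicate block gave 4496 higher and 4491 lower (723 and 678 by 2-fold; 167 and 82 against the 3 lines); libraries of the same number had deviations correlated at -0.08, -0.14 and 0.04, so the numbers pair nothing. Counts under total reads, deposited values, other pseudocounts, voom weights, larger fits and genes with any transcript (added after the data were seen; 739 and 703 by 2-fold) stayed within 1.5 times. Depth limits genes near 10 counts, where folds are understated.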

Other observations

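Gene lists not described above are given on the log2 scale of W718S/Y722S minus WT in vehicle; over all genes tested 38.4% were higher and 38.2% lower. Of 23 tested HOX genes, which record the body position of a cell, 9 were higher, 1 by 2-fold, and 2 lower; with housekeeping genes as the scale 5 were higher and 9 lower, and the median of 0.04 became -0.12. Targets of p53 and kinase inhibitor genes were higher in 14 of 19 and lower in 2. The Notch receptor gene Notch1 was at 754 to 875 normalised counts in WT and 265 to 346 in W718S/Y722S, and Maml2, a coactivator of the pathway, differed by -1.75 ± 0.06; 2 of 11 Notch genes were higher and 5 lower. In the Wnt pathway 4 of 18 were higher and 8 lower, with the ligand gene Wnt10b at 1271 to 1400.5 and 488 to 555, the receptor gene Lgr4 at 1527 to 1600.3 and 3149 to 3453, and Lgr6 at 0.767 to 4.04 and 14.1 to 26.9.

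Counts near the shares over all genes were found for clock genes, with 5 of 16 higher and 7 lower, and for hypoxia and glycolysis genes, with 7 of 19 higher and 8 lower. Within the latter list the glycolytic enzyme gene Pkm was at 34279.9 to 36005 and 84503 to 88502, and the hypoxia-induced peptide gene Adm at 732 to 764 and 185 to 245, so the list held changes past 2-fold in both directions. Feedback regulators of ERK signalling were higher in 7 of 16 and lower in 8; Spry1 was at 401 to 421 and 186 to 279. Imprinted genes were higher in 3 of 10 and lower in 5, mammary basal genes higher in 2 of 5 and lower in 1, and both tested noncoding genes of the X inactivation centre, Ftx and Jpx, were higher. Housekeeping genes themselves were higher in 12 of 17 and lower in 3, with a median of 0.23. Of 10 abundant noncoding and RNA quality transcripts, 7 were higher and 3 lower; Lars2, whose locus holds a stretch resembling ribosomal RNA, was at 11021 to 12732 and 17299 to 21187. For every single gene given values in these paragraphs the lines did not overlap.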
